A study of Mus musculus with 8 samples.

Results

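The acyl-CoA thioesterase (Acot) family was measured by microarray in mouse liver, in 10 of the 19321 genes that the array names (Acot1, Acot2, Acot3, Acot4, Acot6, Acot7, Acot8, Acot9, Acot12 and Acot13). Members were taken by gene symbol, and where a gene had several probes the probe was chosen by the highest mean deposited intensity over the 8 arrays, which touched Acot3 alone (mean 37.9 for the probe used, 11.6 for the other). The array names 13 Acot genes in all, and Acot5, Acot10 and Acot11 are given beside the members. All 10 members had a listed value on every array and all passed the filter on dim genes.

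Every mouse had been given DMBA (7,12-dimethylbenz[a]anthracene, a chemical carcinogen) at 4 to 5 days old and was then kept on its diet for 30 weeks. The arrays fell into 3 groups: liver of DMBA-treated mice on a normal diet (n = 2, mice 117 and 120), non-tumour liver tissue of DMBA-treated mice on a high fat diet (n = 3, mice 117, 186 and 1), and tumour tissue of the same 3 high fat diet livers (n = 3). No normal diet tumour and no liver without DMBA was among the samples, so the diet comparison is between DMBA-treated livers, and strain and sex are not given in the sources used here. The number 117 occurs in both diets and was taken to link only the 2 tissues of the high fat diet mouse.

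Acyl-CoA thioesterases split the thioester bond of acyl-CoA and release a free fatty acid and coenzyme A, the reverse of the activation step that acyl-CoA synthetases carry out. In hepatocytes they act in cytosol, mitochondria and peroxisomes, where they set the balance between acyl-CoA esters, free fatty acids and free coenzyme A during fatty acid oxidation and lipid synthesis. Acot1 to Acot6 are type I enzymes with an α/β-hydrolase fold, the remaining members are type II enzymes with a hotdog fold, and several family genes are known targets of PPARα, the fatty acid-activated nuclear receptor of the liver.

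Levels are the authors' deposited normalized intensities, in which the median of the listed probes is 25 on each array, and the level of 1 probe is not ranked against that of another (sums of marker probes are compared only between groups). Between 81.8% and 88.5% of probes were listed per array, and the dimmest listed values were 1.2 to 1.6. Differences are log2 differences from limma with Benjamini-Hochberg adjustment over all 16800 genes tested, called below an adjusted p of 0.05. They were fitted on log2 signal with an offset of 50, so they are smaller than the ratios of deposited values, above all for dim probes, and no call of a member held when the local background of each spot was used in place of the blank spots. The arrays number 8, which limits the precision, and the p-values measure the spread between these arrays within the groups only. The main fit treated tumour and non-tumour tissue of the same mouse as independent.

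All 10 hepatocyte markers were listed on all 8 arrays, with a summed level of 210280 to 216913 in normal diet liver, 160068 to 163974 in non-tumour and 184498 to 209152 in tumour tissue. The sum mixes directions, with 4 of the markers called higher and 1 lower in tumour than in non-tumour tissue. Mean levels of Tat (3027 and 1060) and Cps1 (295 and 111) were lower in tumour, and those of Apoa1 (24607 and 40857) and Fgb (13715 and 25742) were higher. The 7 liver tumour markers, Afp and Gpc3 among them, summed to 80.3 to 81.1 in normal diet liver, 422 to 597 in non-tumour and 9873 to 15654 in tumour tissue. Of these, 5 were called higher in tumour than in non-tumour tissue. The higher sum in non-tumour than in normal diet liver came mostly from Lcn2, with means of 43.25, 400 and 4987 in the 3 groups. Afp had means of 5.1, 6.6 and 864, Gpc3 5.5, 12.1 and 729, and Igf2 4.2, 3.73 and 5.97. The 7 T, NK and B cell markers on the array summed to 34.7 to 50.9 over all arrays. Over all arrays the muscle markers summed to 26.8 to 36.2, the kidney markers to 33.2 to 39.7 and the cholangiocyte markers to 92.5 to 125.7. Endothelial markers summed to 838 to 1045, 757 to 832 and 499 to 793 in the 3 groups. Clec4g alone carried the lower tumour sum (mean 499 in non-tumour and 295 in tumour tissue), while the other 8 had higher means in tumour, Pecam1 27.3 and 63.4 among them. Stellate cell and fibroblast markers summed to 997 to 1102, 1486 to 2173 and 1200 to 2069. Dcn (means 1092 in non-tumour and 551 in tumour tissue) and Lrat (74.9 and 21.1) were lower in tumour. The other markers of that list had higher means in tumour, Col1a1, Col1a2, Col3a1 and Acta2 among them (Col3a1 354 and 573). Adipoq, the defining adipocyte marker, was listed on no array, while the adipocyte list as a whole summed to 28810 to 34508, 21837 to 24820 and 2269 to 6495, nearly all of it from Car3, which hepatocytes also express. In bulk tissue, fewer cells of a type and less RNA per cell cannot be told apart, and the part of these marker levels in the Acot results was not tested. The gain fits in the scanner headers also differed by diet (a slope of 0.444 to 0.445 on both normal diet arrays, 0.464 to 0.465 on the 6 high fat diet arrays), so scanner setting and diet cannot be told apart.

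Most calls in the family came from tumour against non-tumour tissue. Of the 10 members, 9 were called between tumour and non-tumour tissue (25.4% of all genes tested were): 8 were called lower in tumour than in non-tumour tissue (13.4% of all genes tested were), 1 was called higher (12% of all genes) and Acot6 was not called. The median log2 difference of the members was -0.49, against -0.01 over all genes tested, and 9 of 10 were negative. In 7 members every tumour value was below every non-tumour value, which held for 22.2% of all genes. Because the family was chosen with results of these arrays known, these counts are descriptions of the family and not independent evidence of its direction.

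**Figure D1:**
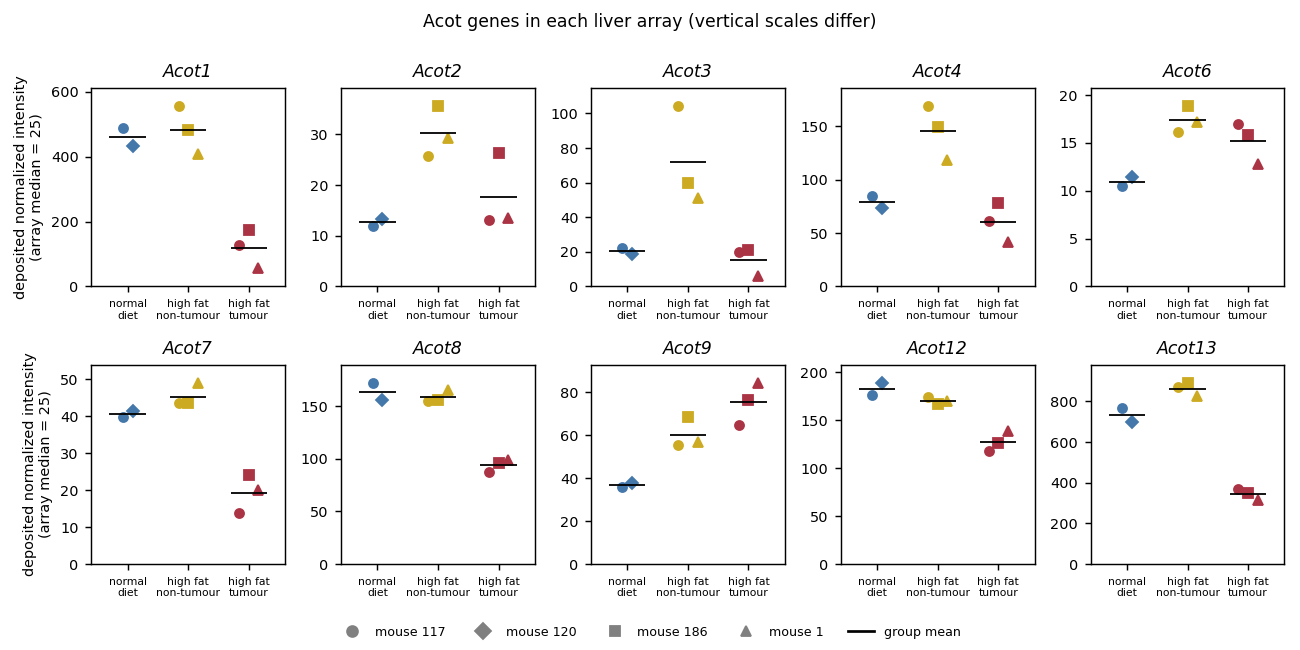
Deposited normalized intensity (vertical axis, array median 25, scales differ between panels) of the 10 Acot genes in each array of the 3 groups, with each point 1 array and the horizontal line the group mean; the marker shape gives the mouse number, and the normal diet mouse 117 is not the high fat diet mouse 117. Acot13 lay between 314.5 and 367.7 in tumour tissue and between 828.3 and 890.2 in non-tumour tissue, while Acot9 was lowest in the normal diet livers, at 35.9 and 38.

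Type I genes lie side by side on mouse chromosome 12, in the order Acot2, Acot1, Acot4, Acot3, Acot5 and Acot6. The promoters of the 4 neighbouring members that were called lower in tumour than in non-tumour tissue are shown to let their start regions be compared. Each is a window of 300 bases around the transcription start from RefSeq (GRCm38.p6, plus strand), at chr12:83987611-83987910 for Acot2, chr12:84009252-84009551 for Acot1, chr12:84038129-84038428 for Acot4 and chr12:84051894-84052193 for Acot3, the first of its windows in the table. Capitals mark TGACCT, the reverse complement of AGGTCA, the core motif of many nuclear receptors.
Acot2: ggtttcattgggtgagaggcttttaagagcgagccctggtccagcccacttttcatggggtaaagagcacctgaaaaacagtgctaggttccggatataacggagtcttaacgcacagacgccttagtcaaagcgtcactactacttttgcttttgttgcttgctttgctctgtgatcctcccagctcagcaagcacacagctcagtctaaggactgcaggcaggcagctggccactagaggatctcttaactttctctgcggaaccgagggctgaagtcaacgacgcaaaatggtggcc
Acot1: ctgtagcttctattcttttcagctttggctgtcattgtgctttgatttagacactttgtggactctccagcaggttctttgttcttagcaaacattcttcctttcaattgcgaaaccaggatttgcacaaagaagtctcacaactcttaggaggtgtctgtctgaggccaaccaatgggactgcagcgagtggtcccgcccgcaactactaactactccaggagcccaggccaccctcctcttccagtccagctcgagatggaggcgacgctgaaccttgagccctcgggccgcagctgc
Acot4: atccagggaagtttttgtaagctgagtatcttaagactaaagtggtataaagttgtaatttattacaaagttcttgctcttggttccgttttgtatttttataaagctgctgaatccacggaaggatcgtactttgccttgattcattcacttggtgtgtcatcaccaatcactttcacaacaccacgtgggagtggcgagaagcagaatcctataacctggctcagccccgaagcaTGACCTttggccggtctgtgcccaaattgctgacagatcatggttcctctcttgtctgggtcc
Acot3: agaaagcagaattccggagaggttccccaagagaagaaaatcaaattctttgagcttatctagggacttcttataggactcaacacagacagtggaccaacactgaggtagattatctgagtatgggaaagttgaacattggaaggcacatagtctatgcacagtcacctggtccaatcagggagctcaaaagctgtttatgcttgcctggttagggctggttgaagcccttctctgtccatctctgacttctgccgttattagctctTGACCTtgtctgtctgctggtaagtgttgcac

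The 4 windows were 43.3% to 47.9% identical in pairwise alignment with gaps. No other promoters were aligned, so these shares cannot be set against those of unrelated windows. GC content of the 4 windows ran from 44% in Acot4 to 52% in Acot1. RefSeq gave windows for 8 of the 10 members (not Acot6 and Acot13). AGGTCA, searched on both strands, occurred in 3 of these 8 members: in Acot4 at position -13 from the start site, in Acot3 at position 19 and in Acot12 at position -110, always on the strand opposite to the gene. The same letters occurred in 16.3% of all 32851 promoter windows of the table. The direct repeat DR1, AGGTCA repeated after a spacer of 1 base and the form of element that PPARα binds with its partner RXR, occurred on either strand in 13 windows (0.0396%) and in none of the members' windows, and every such repeat also counts as a match of AGGTCA. A match of letters is no evidence of a bound site, and no match says only that these letters are not in this window.

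Acot1, the cytosolic long-chain acyl-CoA thioesterase that fasting and PPARα agonists induce in liver, had the widest span of fitted group means among the members, although the deposited means of Acot3 differed by more between non-tumour and tumour tissue (4.62 times, against 4.02 times for Acot1). Its intensity was 488.5 and 431.5 in normal diet liver, 556.8, 480.5 and 408.6 in non-tumour tissue (mice 117, 186 and 1) and 128.5, 175.2 and 55.7 in the matching tumours. All 3 tumours lay below all 5 non-tumour livers, whereas normal diet and high fat non-tumour values overlapped. Within a liver the non-tumour value was 4.33, 2.74 and 7.34 times the tumour value in mice 117, 186 and 1. The log2 difference of tumour from non-tumour tissue was -1.63 ± 0.31 (SE, limma adjusted p = 0.0112). Against normal diet liver the tumours were lower by a log2 difference of -1.42 ± 0.35 (adjusted p = 0.0252), a call lost without normal diet mouse 117 (adjusted p = 0.131), without normal diet mouse 120 (0.103) and with only these 2 groups in the fit (0.0702). Between non-tumour and normal diet liver the difference was 0.21 ± 0.35 (adjusted p = 0.807, 95% interval -0.63 to 1.04).

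Acot3 and Acot4, peroxisomal enzymes for long-chain acyl-CoA and for succinyl-CoA and related dicarboxylic acyl-CoA esters, shared another pattern, highest in high fat non-tumour tissue. The Acot3 probe read 22.5 and 18.6 in normal diet liver, 104.5, 60 and 51.2 in non-tumour tissue and 20, 20.8 and 5.9 in tumours. Every non-tumour value exceeded every value of the other groups, and tumours and normal diet livers overlapped. The non-tumour value was 5.22, 2.88 and 8.68 times that of the tumour in the same liver, with a log2 difference of -0.93 ± 0.18 (adjusted p = 0.0124). The non-tumour mean of 71.9 ± 28.6 (SD, n = 3) was 3.50 times the normal diet mean of 20.6 ± 2.76 (SD, n = 2), but that difference did not pass the test (0.82 ± 0.20, adjusted p = 0.0867, but 0.0441 with deposited values at a pseudocount of 16). The second Acot3 probe, at 8.4 to 15.5 on all 8 arrays, did not show the pattern, with log2 differences of -0.05, 0.06 and 0.01 where the probe used gave -0.93, 0.82 and -0.11, so the result for Acot3 rests on 1 of its 2 probes.

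Acot4 read 84.5 and 73.4 in normal diet liver, 169.1, 149.4 and 118 in non-tumour tissue and 60.9, 78.3 and 42 in tumours. Again the non-tumour values stood above all others without overlap, and 1 tumour (mouse 186) lay between the normal diet livers. The Acot4 ratio of non-tumour to tumour was 2.78, 1.91 and 2.81 in the 3 livers. The tumour was lower by a log2 difference of -0.82 ± 0.16 (adjusted p = 0.0135). The difference of non-tumour from normal diet liver, 0.68 ± 0.18, was not called (adjusted p = 0.105), although it was called when arrays were scaled to the same median (adjusted p = 0.0437). Tumour and normal diet liver did not separate for Acot3 (-0.11, 95% interval -0.60 to 0.38) or Acot4 (-0.14, interval -0.58 to 0.30).

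Acot2, the mitochondrial matrix isozyme of Acot1, was dim. It read 11.9 and 13.4 in normal diet liver, 25.7, 35.7 and 29.4 in non-tumour tissue and 13.2, 26.4 and 13.5 in tumours. The tumour of mouse 186 lay within the non-tumour range, and the other tumours were near the normal diet livers. In each liver the tumour value was the lower of the pair, the non-tumour value being 1.95, 1.35 and 2.18 times as high. The call for tumour against non-tumour tissue (-0.28 ± 0.08, adjusted p = 0.0486) stood at the threshold: it was lost in 7 of the 8 fits that left out an array (it stayed without the tumour of mouse 186, adjusted p = 0.0162), with the compared groups alone (0.0805), without the filter (0.0605), with scaling to the same median (0.0511) and with the deposited values (0.0535 and 0.0652). With mouse as a block it stayed (adjusted p = 0.0182). All 3 non-tumour values exceeded the normal diet values, with a mean 2.39 times as high and an adjusted p of 0.0691, which passed the threshold with an offset of 16 (0.0413) or without the tumour of mouse 186 (0.0399).

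Acot6, a peroxisomal enzyme for methyl-branched acyl-CoA, was the member that passed no test. It read 10.5 and 11.4 in normal diet liver, 16.1, 18.9 and 17.2 in non-tumour tissue and 17, 15.8 and 12.8 in tumours. Both tissues of the high fat diet livers lay above both normal diet livers, and overlapped each other. The difference of tumour from non-tumour tissue was -0.06 ± 0.05 (adjusted p = 0.443, 95% interval -0.17 to 0.05). Acot5, their neighbour outside the members, was close to the detection limit, with 2.3 to 3.8 where listed and no listed value in the tumours of mice 117 and 1.

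For the type II members the standard errors of tumour against non-tumour tissue were 0.03 to 0.09 on the log2 scale, and for the type I members 0.05 to 0.31. Acot13, also known as Them2, hydrolyses medium- and long-chain acyl-CoA and binds the phosphatidylcholine transfer protein. It read 769.6 and 697.9 in normal diet liver, 871.6, 890.2 and 828.3 in non-tumour tissue and 367.7, 347.3 and 314.5 in tumours. The 3 groups did not overlap. The tumour mean of 343 ± 26.8 (SD, n = 3) was below the non-tumour mean of 863 ± 31.8 (n = 3) in near equal proportion in every liver, the non-tumour value being 2.37, 2.56 and 2.63 times the tumour value. The log2 difference was -1.01 ± 0.09 (adjusted p = 0.000926) against non-tumour tissue and -0.65 ± 0.10 (adjusted p = 0.00553) against normal diet liver. Non-tumour tissue was higher than normal diet liver by 0.36 ± 0.10, which was not called (adjusted p = 0.125) but was with scaling to the same median (0.0206) or without the tumour of mouse 1 (0.0494).

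Acot8, the peroxisomal thioesterase of broad substrate range that also acts on bile acid-CoA esters, had the smallest standard error of the members. It read 171.9 and 155.5 in normal diet liver, 154.6, 156.3 and 165.3 in non-tumour tissue and 87.6, 95.6 and 98.9 in tumours. Normal diet and non-tumour values overlapped and all tumours lay below both. The non-tumour value was 1.76, 1.63 and 1.67 times that of the tumour, with a log2 difference of -0.48 ± 0.03 (adjusted p = 0.000239). Tumours were also lower than normal diet liver (-0.40 ± 0.03, adjusted p = 0.000383).

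Acot7, a cytosolic enzyme best known from brain, read 39.9 and 41.4 in normal diet liver, 43.5, 43.5 and 49 in non-tumour tissue and 13.9, 24 and 20 in tumours. The tumours lay below all other arrays. The non-tumour value was 3.13, 1.81 and 2.45 times the tumour value, the log2 difference was -0.50 ± 0.04 (adjusted p = 0.000762), and against normal diet liver it was -0.39 ± 0.05 (adjusted p = 0.00222).

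Acot12, the cytosolic acetyl-CoA hydrolase of liver, read 175.9 and 188.6 in normal diet liver, 173.9, 167.3 and 169.9 in non-tumour tissue and 117.6, 125.9 and 138.9 in tumours. The tumours again lay below all other arrays, with the smallest ratio among the members without overlap, the non-tumour value being 1.48, 1.33 and 1.22 times the tumour value. The log2 difference was -0.23 ± 0.04 (adjusted p = 0.00892). The call against normal diet liver (-0.19 ± 0.05, adjusted p = 0.0252) was lost without normal diet mouse 120 (0.139), without the tumour of mouse 117 (0.0674) or of mouse 186 (0.0601), with the compared groups alone (0.062) and with scaling to the same median (-0.06, 0.408).

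Acot9, a mitochondrial thioesterase, was the 1 member called higher in tumour tissue, against either other group. It read 35.9 and 38 in normal diet liver, 55.6, 68.3 and 57 in non-tumour tissue and 65, 76.6 and 84.3 in tumours. Both high fat diet groups lay above the normal diet livers, and the tumour was the higher tissue in each liver, by 1.17, 1.12 and 1.48 times, with overlap between the groups. The difference of tumour from normal diet liver was 0.61 ± 0.07 (adjusted p = 0.00196), and this call held in every fit that left out an array. The step from normal diet to non-tumour tissue, 0.39 ± 0.07, was called (adjusted p = 0.0409). It was lost without either normal diet mouse (0.23 without 117, 0.161 without 120), without any one of the non-tumour arrays (0.0611 to 0.082), without the tumour of mouse 117 (0.0643) or 186 (0.0566), with the compared groups alone (0.0649), without the filter (0.0517) and with deposited values at a pseudocount of 1 (0.064). The step from non-tumour to tumour tissue, 0.22 ± 0.06 (adjusted p = 0.0477), was lost with mouse as a block (0.107), in 7 of 8 fits that left out an array (it stayed without the non-tumour array of mouse 186, 0.0153), with the compared groups alone (0.0757), without the filter (0.0577), with scaling to the same median (0.0728) and with the deposited values (0.104 and 0.172). The 13 macrophage and Kupffer cell markers summed to 1456 to 2224 in normal diet liver, 2483 to 2631 in non-tumour tissue and 1391 to 1914 in tumours. That sum mixes directions, with 1 marker called higher and 3 lower in tumour than in non-tumour tissue. Cd14 had means of 18.2, 47.7 and 329 in the 3 groups, and Marco 282, 47.3 and 4.5. The part of these markers in the Acot9 values was not tested.

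**Figure D2:**
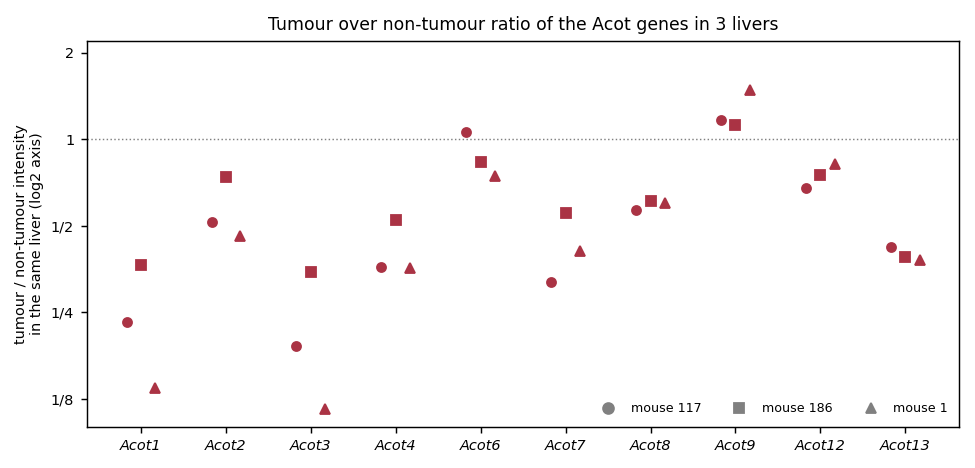
Tumour over non-tumour ratio of deposited intensity within each of the 3 high fat diet livers (vertical axis, log2 scale, 1 marks equal values) for the 10 Acot genes, 1 point per liver. Acot9 was above 1 in all 3 livers, Acot6 lay on both sides of 1, and the other 8 members were below 1 in every liver, from 0.115 for Acot3 in mouse 1 to 0.818 for Acot12 in the same mouse.

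Among mice, the tumour of mouse 186 kept the highest level of Acot1, Acot2, Acot3, Acot4 and Acot7 among the 3 tumours, and the tumour of mouse 1 had the lowest level of Acot1, Acot3, Acot4, Acot6 and Acot13. These orders were not tested, since each tumour is a single array.

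The diet comparison gave few calls. Acot9 was the 1 member called between non-tumour and normal diet liver (3.83% of all genes tested were called, 1.81% higher and 2.02% lower), while all 10 fitted differences were positive, with a median of 0.28 against -0.0050 over all genes. In 7 members every non-tumour value exceeded both normal diet values (13% of all genes did), and in Acot12 every non-tumour value was below them (31.4% of all genes). Acot12 and Acot8 were the 2 members whose deposited group mean was lower in non-tumour tissue, and their fitted differences (0.04 and 0.08) turned negative with the deposited values (-0.10 and -0.04 at a pseudocount of 1) and were called higher with scaling to the same median (adjusted p = 0.0498 and 0.0211), so their direction by diet was not settled. The comparison with tumours uses the same non-tumour arrays, so the high non-tumour values of Acot2, Acot3 and Acot4 enter both.

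Against normal diet liver, 6 of 10 members were called (27.9% of all genes tested): 5 members were called lower in tumours (15% of all genes tested were) and 1, Acot9, was called higher (12.9%), while Acot2, Acot3, Acot4 and Acot6 were not called. The members' median log2 difference was -0.17 against -0.01 over all genes. Without overlap, 5 members were lower (39.1% of all genes) and 2 higher (16.8%).

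**Figure D3:**
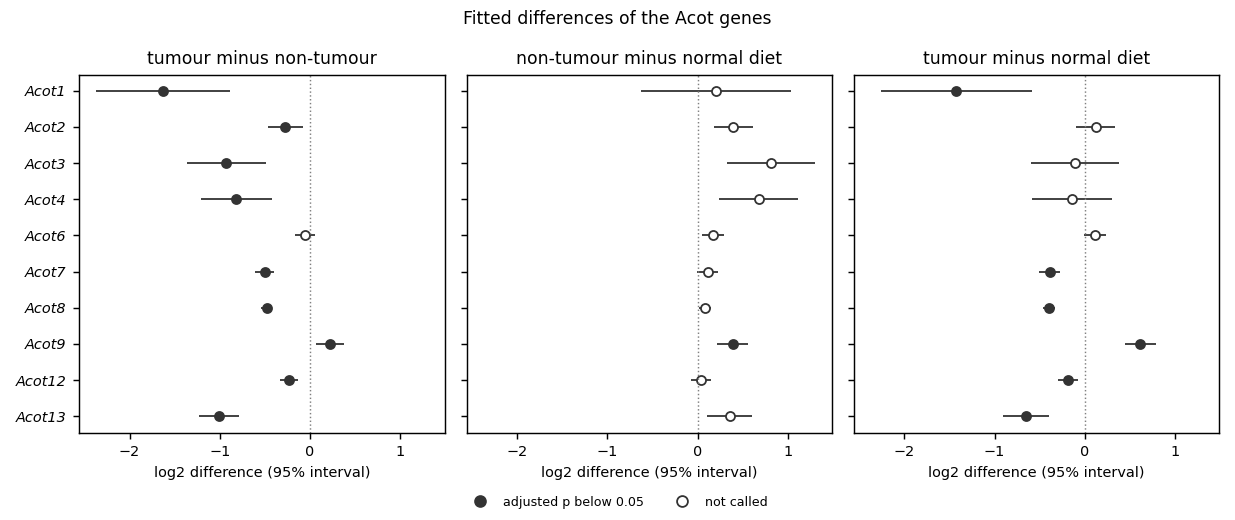
Log2 difference with its 95% interval (horizontal axis) for the 10 Acot genes in the 3 comparisons, from limma on 8 arrays; filled points are below an adjusted p of 0.05. In tumour minus non-tumour 9 points are filled, from Acot1 at -1.63 to Acot9 at 0.22, and in non-tumour minus normal diet all points lie above 0 and only Acot9 is filled.

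Of the array's other Acot genes, Acot10, a close copy of Acot9, read 11 and 8.8 in normal diet liver, 21.9, 40.8 and 28.5 in non-tumour tissue and 29.2, 31.5 and 46 in tumours. Acot10 had the same order of group means as Acot9, with a called difference of tumour from normal diet liver (0.56, adjusted p = 0.0185, lost without normal diet mouse 117 at 0.0911 or 120 at 0.0998). Tumour and non-tumour tissue overlapped and were not called different (0.10, adjusted p = 0.597). Unlike for Acot9, the tumour was the lower tissue in mouse 186. Probe sequences were not analysed here, so signal shared between near-identical copies, such as Acot9 with Acot10 or Acot1 with Acot2, remains uncertain. Acot11, also known as Them1, was lower in tumour than in non-tumour tissue (means 21.1 and 35.1, log2 difference -0.29, adjusted p = 0.00218). The second Acot11 probe, listed on 4 of 8 arrays at 1.5 to 2.8, gave 0.01, so this result rests on 1 of 2 probes.

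The genes whose pattern was most like that of Acot1 over the 8 arrays, by Pearson correlation of log2 signal, were Eci2 (r = 0.991), Aldh6a1 (0.988), Galm (0.986), Cyp4a10 (0.986) and Pitx3 (0.985). Eci2 is a peroxisomal and mitochondrial enoyl-CoA isomerase, Aldh6a1 a mitochondrial enzyme of valine breakdown and Cyp4a10 a fatty acid ω-hydroxylase. The 8 arrays share the separation of tumour from other tissue, which every such correlation carries. All 5 genes were called lower in tumour than in non-tumour tissue, Galm no longer with mouse as a block (adjusted p = 0.0509) or without any one of the non-tumour arrays (0.0608 to 0.0652).

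Genes that handle the same substrates, PPARα targets, and transcription factors and coactivators of fatty acid oxidation were counted in 9 lists, some of which share genes. Of all genes tested, 13.4% were called lower and 12% higher in tumour than in non-tumour tissue. In tumour against normal diet liver the shares were 15% lower and 12.9% higher, and by diet 2.02% lower and 1.81% higher. The list counts below are to be read beside these shares. Fatty acid oxidation genes were mostly lower in tumour than in non-tumour tissue. For mitochondrial and peroxisomal acyl-CoA oxidation, 15 of 17 tested mitochondrial genes were called lower in tumour than in non-tumour tissue and 0 higher (median -0.68), and 13 of 17 peroxisomal genes were lower and 1 higher (median -0.97). Against normal diet liver, 6 mitochondrial genes were lower and 1 higher in tumours (median -0.40). For the peroxisomal genes the counts were 10 lower and 1 higher (median -0.79). With deposited values the mitochondrial count was 15 lower (pseudocount 1) or 17 lower (pseudocount 16), and 0 higher. Both lists had fewer calls without either normal diet array, which leaves 1 array in that group. By diet, 4 mitochondrial genes were higher and 0 lower in the same non-tumour arrays, and 1 peroxisomal gene was called in each direction. The mitochondrial diet count was 7 with scaling to the same median, and 0 or 1 with deposited values at pseudocounts of 1 and 16. The peroxisomal diet counts were 5 higher and 1 lower with the compared groups alone. Examples from tumour against non-tumour tissue were Eci1 (-1.12), Etfdh (-1.09), Hsd17b10 (-1.02) and Hadh (-0.86) in mitochondria. In peroxisomes they were the thiolase Acaa1b (-1.64), Hacl1, the lyase of α-oxidation (-1.58), and Pex11a, a peroxisome division factor (-1.57). Abcd2, an importer of very long-chain acyl-CoA, rose (1.73, adjusted p = 0.00144). Pex11a differed from normal diet liver by 1.39 in non-tumour tissue (adjusted p = 0.0533) and -0.17 in tumours (0.698), neither called. For Hacl1 these were -0.92 (0.149, not called) and -2.50 (0.00193).

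Of the carnitine genes, 5 of 8 were lower and 0 higher (median -0.75, and 3 lower without the non-tumour array of mouse 117 or of mouse 1). Against normal diet liver 1 of the 8 was lower in tumours (12.5%, near the 15% of all genes tested) and 0 higher. The genes lower than in non-tumour tissue included Crot (-1.13) and Crat (-1.07), acyltransferases that pass acyl groups to carnitine, the carnitine importer Slc22a5 (-0.82) and Cpt2 (-0.92, lost without any of 4 arrays in turn, adjusted p = 0.0556 to 0.079). Crat read 121.8 and 94.2 in normal diet liver, 309, 281.4 and 386.2 in non-tumour tissue and 102.9, 145.7 and 107.5 in tumours. As for Acot4, the non-tumour values stood above all others without overlap. Its diet difference was called (1.35 ± 0.14, adjusted p = 0.00791, lost without normal diet mouse 120 at 0.0715).

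**Figure D4:**
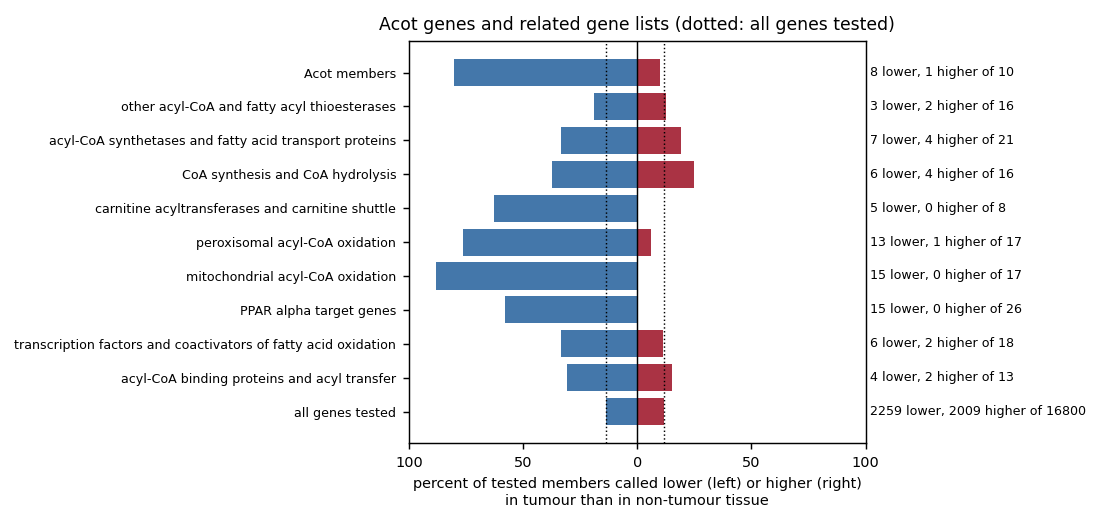
Percent of tested genes called lower (left bars) and higher (right bars) in tumour than in non-tumour tissue for the Acot members and 9 related lists, with counts at the right; dotted lines give all 16800 genes tested (13.4% lower and 12% higher). Mitochondrial oxidation (15 of 17), the Acot members (8 of 10) and peroxisomal oxidation (13 of 17) had the highest shares called lower.

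PPARα targets were lower in tumour than in non-tumour tissue in 15 of 26 and higher in 0 (median -0.52). Against normal diet liver, 5 were lower and 6 higher in tumours (median -0.01). With deposited values at a pseudocount of 16 these counts were 12 lower and 5 higher. In non-tumour tissue 6 were higher and 0 lower than in normal diet liver (median 0.53). This comparison shares the non-tumour arrays with the first. Its count was 12 with scaling to the same median, 11 with the compared groups alone and 3 without the non-tumour array of mouse 186. It fell without either normal diet array, which leaves 1 array in that group. Ehhadh, the peroxisomal bifunctional enzyme, fell by 1.51 on the log2 scale (adjusted p = 0.00185), Cyp4a10 by 2.37 (0.00301), and Cyp4a31 by 2.01 (0.00494). Cidea, a lipid droplet protein, was 3.10, 4.29 and 9.98 times higher in non-tumour tissue than in the tumour of the same liver (adjusted p = 0.0142). Cyp4a14 read 2150.1 and 1641.9 in normal diet liver, 3017.4, 2894.5 and 4043.8 in non-tumour tissue and 435.9, 551.5 and 68.3 in tumours. All tumours lay below all other arrays, and its difference of -3.21 ± 0.66 (adjusted p = 0.0143) missed the threshold with mouse as a block (0.0585) or without the non-tumour array of mouse 1 (0.0501). Cpt1a, the rate-limiting carnitine palmitoyltransferase of the outer mitochondrial membrane, differed by -0.05 ± 0.23 (adjusted p = 0.912).

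Ppara itself read 1063.3 and 899.1 in normal diet liver, 1276.2, 1363.1 and 922.7 in non-tumour tissue and 899, 763.9 and 529.6 in tumours. The tumour value was below the non-tumour value in each liver, at 0.704, 0.560 and 0.574 of it, but the difference was not called (-0.39 ± 0.26, adjusted p = 0.336, but 0.0423 with deposited values at a pseudocount of 16). Hnf4a, a central hepatocyte transcription factor, read 1235 and 949.4 in normal diet liver, 809.2, 599.9 and 713.8 in non-tumour tissue and 919.2, 642.6 and 879.5 in tumours. Its tumour against non-tumour difference (0.47 ± 0.16, adjusted p = 0.0759) was called with mouse as a block (0.0133) and without the tumour of mouse 186 (0.0359). Both high fat diet groups lay below both normal diet livers. The fitted differences from normal diet liver were not called, at -0.41 for non-tumour tissue (adjusted p = 0.259) and 0.05 for tumours (0.854). Of 18 transcription factors and coactivators of fatty acid oxidation, 6 were lower and 2 higher (median -0.16), and 4 were called in all without the non-tumour array of mouse 117, that of mouse 1 or the tumour of mouse 1. Pparg (-0.90) was among the lower genes, as was Nr1h4 (-0.85, the bile acid receptor, lost without any of 4 arrays in turn, adjusted p = 0.0663 to 0.0807). By diet, Pparg was higher in non-tumour tissue (0.90, adjusted p = 0.0123), a call lost without either normal diet array. Its tumours were not called against normal diet liver (0.0015, adjusted p = 0.995). Ppargc1a (0.86) and Srebf2 (0.62) were higher. The Ppargc1a difference was 0.25 (adjusted p = 0.0504) when its probes were averaged, so its size depended on the probe used. Srebf2 had an adjusted p of 0.0612 under the mouse block, 0.0509 without the non-tumour array of mouse 117 and 0.052 without that of mouse 1.

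The synthetases, which act in the opposite direction to thioesterases, were mixed, with 7 of 21 lower and 4 higher (median -0.06). Acsm1 (-1.88) and Acsm5 (-1.63), medium-chain synthetases, and the bile acid-CoA ligase Slc27a5 (-1.19) were lower, and the long-chain synthetase Acsl5 was higher, at 5763.4, 4340.3 and 4647.2 in tumours against 2819.5, 2253.1 and 1849.7 in non-tumour tissue (1.33 ± 0.19, adjusted p = 0.00435). Of 16 genes of coenzyme A synthesis and hydrolysis, 6 were lower and 4 higher (median -0.12, and 4 and 2 without the non-tumour array of mouse 1). Nudt7, a peroxisomal coenzyme A diphosphatase (-1.77), and Coasy, the last enzyme of coenzyme A synthesis (-1.08), were lower. So was the pantetheinase Vnn1 (-1.33, adjusted p = 0.0797 with mouse as a block, 0.0566 and 0.0506 without the non-tumour array of mouse 186 or 1). Vnn3 was higher (1.64). By diet, Vnn1 was higher in non-tumour tissue (1.90, adjusted p = 0.0325, lost in 6 of 8 fits that left out an array). Nudt7 was lower there (-1.41, adjusted p = 0.0412, lost in 7 of 8). Against normal diet liver the tumours were not called for Vnn1 (0.56, adjusted p = 0.242) and were lower for Nudt7 (-3.18, adjusted p = 0.000592).

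Among 16 thioesterases outside the Acot members, Acot11 included, 3 were lower and 2 higher, with a median of -0.01. These shares, 18.75% lower and 12.5% higher, were near the 13.4% and 12% of all genes tested. Baat, which joins bile acids to taurine or glycine and also has thioesterase activity, fell by 1.65 on the log2 scale (adjusted p = 0.000859), Them7 fell by 1.47 (0.000612), and Them5 rose by 0.41 (0.0105). Of 13 genes of acyl-CoA binding and acyl transfer, 4 were lower and 2 higher (median -0.03). Gpat4 (-1.19) and Agpat2 (-1.01), early enzymes of glycerolipid synthesis, were lower, and Acbd3 was higher (0.84). Mogat1, a monoacylglycerol acyltransferase, read 28.3 and 16.6 in normal diet liver, 142, 175.8 and 169.4 in non-tumour tissue and 22.4, 29.6 and 14.4 in tumours. It was higher in non-tumour than in normal diet liver (1.62 ± 0.12, adjusted p = 0.00255) and lower in tumour (-1.61 ± 0.11, adjusted p = 0.000417), with tumours and normal diet livers overlapping.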

How the data were processed

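RNA from 8 livers or liver tumours was amplified, coupled to a cyanine dye and hybridised to 1-colour TORAY arrays, per the labels' protocols. The authors deposited scanner intensities and a table of normalized intensities. The deposited table equals the spot median minus the blank mean, divided by a factor that sets the array's median to 25 (r2 = 1 on each array), with values near the blank level left empty, and aligner and build do not apply. Of 27456 spots, 3982 were controls, blanks or without a probe. Of 23473 probes, 20690 had 1 gene symbol and 2783 none, in GEO's platform annotation.

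Spot medians were corrected with normexp (offset 50, 2736 blank spots as negative controls) and quantile normalized, and limma 3.58.1 (R 4.3.3) was fitted to all 8 arrays and 3 groups (5 residual degrees of freedom), 2-sided, with Benjamini-Hochberg adjustment. A gene was tested where some group had it listed on each of its arrays (16800 genes, 2521 left out). The fit was tested on simulated data. Tumour and non-tumour tissue of 1 mouse deviated together (r = 0.442, 0.148 and 0.167, against -0.274 to 0.028 for different mice), and the labels give the same liver number, so mouse as a block was an alternative. The others were the background correction, scaling, offset, filter, probe rule, deposited values at pseudocounts of 1 and 16, the compared groups alone, and each array left out.

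The members and gene lists were chosen with earlier results of these data known. Named were all members, up to 4 called genes per list by the size of the difference between tumour and non-tumour tissue, Ppara, Hnf4a, Cpt1a, Cyp4a10, Cyp4a14 and Ehhadh, and the 5 genes most correlated with the member of widest span. Promoter windows are from RefSeq (GRCm38.p6).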

Additional observations from a re-analysis of the deposited data

How the results depend on the processing

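With local background in place of the blanks, calls fell to 125 genes, 0 members and 4 list genes in tumour against non-tumour tissue (from 4268, 9 and 83), to 4, 0 and 0 in non-tumour against normal diet liver (from 644, 1 and 19) and to 223, 0 and 4 in tumour against normal diet liver (from 4679, 6 and 68); the cause was not tested. Signs turned there for Acot2 (0.011, -0.017 and -0.0058 in these 3 comparisons), Acot3 (0.035 and -0.056 in the first and second), Acot8 (-0.20, diet), Acot12 (0.068, tumour against normal diet), Hnf4a (-0.040, likewise) and Agpat2 (0.0054, tumour against non-tumour). For the diet comparison, scaling to the same median called 1403 genes, 5 members and 38 list genes and put Acot5 at -0.073, offset 16 called 2 members, deposited values called 0 members (pseudocount 1) or 1142 genes and 2 members (pseudocount 16), and no filter or the compared groups alone called 0 members. Deposited values also turned Acot8 (-0.043 and -0.039 at pseudocounts of 1 and 16) and Acot12 (-0.096 and -0.089) by diet, and Ppara (-0.45 and -0.44) and Hnf4a (-0.43 and -0.42) in tumour against normal diet liver, where the median of all genes moved to -0.20 (pseudocount 1).

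Leaving out 1 array at a time gave 3118 to 4191 genes, 7 to 8 members and 65 to 84 list genes in tumour against non-tumour tissue. The ranges were 95 to 781, 0 to 2 and 2 to 26 by diet, and 2316 to 4439, 4 to 6 and 38 to 72 in tumour against normal diet liver, the lowest without a normal diet array. Signs turned for Acot12 by diet (-0.019 to 0.10), for Acot3 (-0.19 to 0.0094), Acot4 (-0.25 to 0.010), Ppara (-0.14 to 0.30) and Hnf4a (-0.092 to 0.20) in tumour against normal diet liver, and for Cpt1a (-0.26 to 0.12) in tumour against non-tumour tissue. With mouse as a replicate block, 3495 genes and 8 members, all lower, were called. Higher calls were 47.1% of the total in tumour against non-tumour tissue, 47.2% by diet and 46.2% in tumour against normal diet liver. They were 76%, 25% and 60.1% with local background, 77.3% by diet with scaling, 26.5% by diet at pseudocount 16, and 31.6% and 29.5% in tumour against normal diet liver with deposited values. No scan or slide block was run, as none was given. Signals near the blanks limit Acot2, Acot5 and Acot6.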
